A study of Mus musculus with 6 samples.

Results

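The interleukin-1 (IL-1) family is described here through 10 genes, its main ligands, receptors and inhibitors together with 2 inflammasome genes. They are Il1b, Il1a, Il18 and Il33 (ligands), Il1rn and Il1r2 (inhibitors), Il1r1 and Il1rap (receptor chains), and Casp1 and Nlrp3 (inflammasome). They were chosen by symbol, with earlier results of these data known, and all 10 were measured, among 22180 genes in all. Each gene was read from 1 probe set, that with the highest mean signal among those naming it alone. Expression was measured on 1 array per mouse in livers of male C57BL/6 mice kept in a specific-pathogen-free room. The controls were 3 livers that expressed GFP, a green fluorescent marker protein, from mice 13, 21 and 6. The other 3, from mice 26, 28 and 31, expressed SHH, the Hedgehog ligand. The design text of the series says that the SHH model was made by hydrodynamics-based transfection, in which DNA is pushed into the liver with a large, fast injection. It was set up to assess liver fibrosis and the genes tied to it. The labels list no further treatment. They give no age, no time after injection, no vector or promoter and no share of cells that took up the DNA, and they do not say how GFP was introduced.

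IL-1β and IL-1α are alarm cytokines that bind the same receptor, a pair of the chains IL-1R1 and IL-1RAP, and signal through MyD88 and IRAK kinases to NF-kappaB. IL-1β and IL-18 are made as inactive precursors and are cut by caspase-1, which an inflammasome built on NLRP3 activates. The receptor antagonist IL-1Ra (Il1rn) occupies IL-1R1 without signalling, and IL-1R2 is a decoy receptor. In the liver, macrophages and infiltrating myeloid cells are the main makers of IL-1β, and hepatocytes answer IL-1 with acute phase proteins.

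Values are log2 signals, so a difference of 1 is a doubling. Where the 3 values of a group are listed, GFP livers stand in the order 13, 21, 6 and SHH livers in the order 26, 28, 31. On each array the mean levels of 12 hepatocyte markers lay between 11.73 and 11.87, far above the array medians of 4.32 to 4.40. Shh itself ranged from 3.43 to 3.86 in GFP livers and from 4.28 to 4.63 in SHH livers (difference 0.84, limma, adjusted p = 0.356). The labels do not say whether the probes match the introduced sequence. Over all genes the median difference was -0.03. Limma called 0% of the 22180 genes at an adjusted p under 0.05. At an unadjusted p under 0.05 it gave 738 genes upward and 889 downward. The smallest adjusted p of any gene was 0.174. Arrays of bulk liver cannot tell more cells of a type from more RNA per cell, and 3 arrays per group limit the precision.

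Of the 10 genes, 3 had higher signal in every SHH liver than in any GFP liver: the ligand gene Il1b, the receptor gene Il1r1 and the antagonist gene Il1rn. The other 7 overlapped between the groups, among them Il1a, Il18 and Il33, the decoy receptor gene Il1r2 and both inflammasome genes. By the moderated test of limma, 0 of 10 passed the threshold over all genes. The same 3 had an unadjusted p under 0.05 upward and 0 did so downward, against 3.33% of all genes upward and 4.01% downward. Complete separation upward was found for 3 of 10 members, against 5.26% of all genes, and downward for 0 of 10, against 7.25%. The median difference of the 10 genes was 0.14, and 7 had higher means in SHH livers, against 43.8% of all genes.

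**Figure D1:**
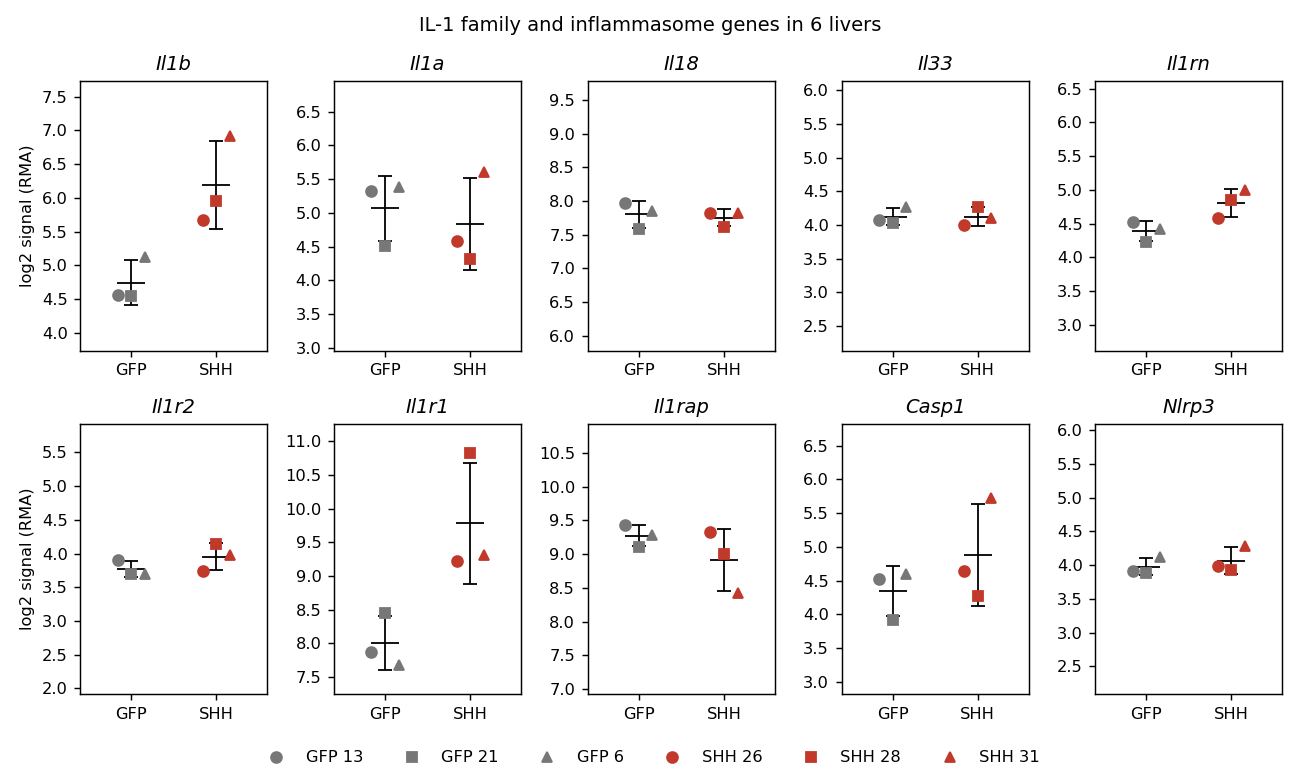
The log2 signal (vertical axis, each panel spanning 4 units) of the 10 genes is plotted for each GFP liver (grey) and SHH liver (red), with bars for the mean and SD of 3 mice. Only in the panels of Il1b, Il1r1 and Il1rn do all red points lie above all grey points.

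For the genes whose groups did not overlap, the sequence before a start site listed by RefSeq is shown, to let the reader see the stretch of DNA from which they are transcribed. The RefSeq promoter table (assembly GRCm38.p6) held 15 windows for the 10 genes and every gene had at least 1. Each sequence runs 5′ to 3′ on the gene's strand and is cut where the annotated span of the gene begins, except for Il1r1, whose listed starts both lie inside that span. Capitals mark matches to the NF-kappaB consensus, the STAT motif TTCNNNGAA, the C/EBP motif TTGCNNAA and the AP-1 motif TGANTCA, each on either strand, and to TATAAA on the gene's strand.
Il1b, chr2:129371165-129371389, minus strand: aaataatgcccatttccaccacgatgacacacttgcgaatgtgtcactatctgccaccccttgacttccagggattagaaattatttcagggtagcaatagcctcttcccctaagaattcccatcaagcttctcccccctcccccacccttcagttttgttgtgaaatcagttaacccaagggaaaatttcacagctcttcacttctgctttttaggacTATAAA
Il1r1, upstream listed start, chr1:40224830-40225079, plus strand: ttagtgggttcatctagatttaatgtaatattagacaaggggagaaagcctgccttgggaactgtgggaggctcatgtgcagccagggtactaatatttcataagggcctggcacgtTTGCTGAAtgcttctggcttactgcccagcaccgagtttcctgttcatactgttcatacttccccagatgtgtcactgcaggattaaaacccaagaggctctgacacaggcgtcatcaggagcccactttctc
Il1r1, downstream listed start, chr1:40266336-40266585, plus strand: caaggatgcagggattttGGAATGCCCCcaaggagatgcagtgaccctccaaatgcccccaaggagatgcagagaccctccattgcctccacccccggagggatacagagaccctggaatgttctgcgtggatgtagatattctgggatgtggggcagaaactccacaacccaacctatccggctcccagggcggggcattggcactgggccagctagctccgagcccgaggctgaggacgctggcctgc
Il1rn, most upstream of 3 listed starts, chr2:24336610-24336859, plus strand: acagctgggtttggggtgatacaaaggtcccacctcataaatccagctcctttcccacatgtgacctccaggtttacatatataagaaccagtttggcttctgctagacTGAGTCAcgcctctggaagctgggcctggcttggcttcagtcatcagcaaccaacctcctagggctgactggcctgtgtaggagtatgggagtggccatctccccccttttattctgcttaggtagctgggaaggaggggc

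The Il1b sequence ends in a TATAAA at positions -31 to -26 from its listed start, and 6.1% of all 32817 windows held one within the same 225 bases. The upstream Il1r1 window held a C/EBP match at -133 to -126 (9.6% of windows of 250 bases had one) and the downstream window an NF-kappaB match at -232 to -223 (7.2%). The Il1rn window held an AP-1 match at -141 to -135 (6.8%). No match overlapped another in these 4 windows. These are matches of letters in short windows, not measured binding. The array gives 1 value per gene, so it does not show which start was used.

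The ligands came first in the comparison. Il1b, which encodes the IL-1β precursor, had log2 signals of 4.56, 4.55 and 5.13 across the GFP livers. Across the SHH livers it had 5.68, 5.96 and 6.92. Every SHH liver lay above the highest GFP liver, that of mouse 6, and mouse 31 stood highest. The means were 4.74 ± 0.33 (SD, n = 3) and 6.19 ± 0.65 (SD, n = 3), a difference of 1.44 (95% interval 0.75 to 2.13), or 2.72-fold. It ranked 31st among the genes higher in SHH livers by unadjusted p (0.00111), and its adjusted p over all genes was 0.409 in limma.

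Il1a, the gene of the other IL-1 ligand, is separated from Il1b on chromosome 2 by 0 protein-coding genes in the RefSeq table. Its signals were 5.32, 4.51 and 5.38 across the GFP livers and 4.58, 4.31 and 5.60 across the SHH livers. The groups overlapped: the highest value was that of SHH 31 and the lowest that of SHH 28, with GFP 21 near it. The difference was -0.24 (95% interval -1.02 to 0.54; limma, adjusted p = 0.923), and it was 0.02 without SHH 28 and -0.62 without SHH 31.

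Whether both IL-1 genes moved by the same amount was asked of the difference between their log2 signals within each array. Il1b less Il1a was -0.76, 0.04 and -0.25 across the GFP livers and 1.10, 1.65 and 1.32 across the SHH livers. The zero point of this difference depends on the probes and has no meaning of its own. The size of the shift between the groups is uncertain as well. Il1a lay close to the array median in GFP 21 and SHH 28, and arrays compress the change of dim genes. All SHH livers lay above all GFP livers, by 1.68 on average. The exact permutation test gave p = 0.1, two-sided, which is the smallest p that 3 mice against 3 can give, and 0.1 after Benjamini-Hochberg adjustment over 3 such comparisons.

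Il18 encodes a ligand that acts on T cells and natural killer cells and, like IL-1β, is cut by caspase-1. It gave 7.97, 7.58 and 7.85 across the GFP livers and 7.83, 7.61 and 7.82 across the SHH livers. The groups covered nearly the same range. Its difference was -0.05 with a 95% interval of -0.38 to 0.28, which bounds a change in either direction at well under a doubling (limma, adjusted p = 0.964).

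Il33 encodes a nuclear alarm ligand of endothelial, stellate and epithelial cells that is released upon damage. Its signals were 4.08, 4.03 and 4.26 across the GFP livers and 4.001, 4.27 and 4.10 across the SHH livers. The groups were interleaved, with a difference of 0.00 (95% interval -0.30 to 0.30; limma, adjusted p = 0.999). On every array Il33 was dimmer than the median signal, where arrays compress differences. Among 10 stellate cell markers 0 had an unadjusted p under 0.05 (Dcn 0.26 and Colec11 0.20 had the smallest p), and the same held for 11 sinusoidal endothelial markers, of which 10 had lower means (Clec4g -0.44, Kdr -0.44).

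The inhibitors were read next, and they were not tested against each other. Il1rn, the gene of the receptor antagonist, had 4.52, 4.23 and 4.41 across the GFP livers and 4.58, 4.85 and 4.998 across the SHH livers. Every SHH liver was above every GFP liver, but SHH 26 exceeded GFP 13 by a narrow margin. Means were 4.39 ± 0.15 (SD, n = 3) and 4.81 ± 0.21 (SD, n = 3), 1.34-fold higher in SHH livers (difference 0.42, 95% interval 0.08 to 0.76; limma, unadjusted p = 0.0209, adjusted p = 0.611). Without GFP 21, SHH 28 or SHH 31 its unadjusted p was 0.0760, 0.0527 and 0.0695.

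Il1r2, the decoy receptor gene, had 3.91, 3.70 and 3.70 across the GFP livers and 3.74, 4.14 and 3.99 across the SHH livers. SHH 28 and SHH 31 were highest, while SHH 26 lay below GFP 13. The difference of 0.19 had a 95% interval of -0.14 to 0.51 (limma, adjusted p = 0.836), and the gene lay below the median of every array.

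The ligand and its antagonist were compared within arrays in the same way. Il1b less Il1rn was 0.03, 0.32 and 0.72 across the GFP livers and 1.10, 1.11 and 1.92 across the SHH livers. The SHH livers lay above the GFP livers throughout, with a shift of 1.02 toward Il1b (exact permutation test, p = 0.1, the smallest possible; adjusted 0.1). Array signals compress the change of dim genes, and Il1rn lay closer to the array medians than Il1b, so the size of this shift is uncertain.

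Of the receptor chains, Il1r1 had the largest difference of the 10 genes. Its signals were 7.87, 8.46 and 7.68 across the GFP livers and 9.22, 10.82 and 9.31 across the SHH livers. All SHH livers were above all GFP livers, SHH 28 far above the other two SHH livers, and GFP 21 was the highest of the GFP livers. The means were 8.005 ± 0.40 (SD, n = 3) and 9.78 ± 0.90 (SD, n = 3), a difference of 1.78 (95% interval 0.88 to 2.68), or 3.43-fold. In absolute size this difference was at the 99.93rd percentile of all genes. The unadjusted p was 0.00160 and the adjusted p over all genes 0.409 (limma). With each mouse left out in turn the difference ran from 1.26 (without SHH 28) to 2.06 (without SHH 26).

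Il1r1 and the decoy gene Il1r2 are neighbours on chromosome 1, with 0 protein-coding genes between them in the RefSeq table. Il1r1 less Il1r2 was 3.96 to 4.76 in GFP livers and 5.32 to 6.67 in SHH livers, a shift of 1.59 with no overlap (exact permutation test, p = 0.1, the smallest possible; adjusted 0.1). Il1r2 was dim on every array, which compresses its own difference, so the size of this shift is uncertain too.

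Il1rap encodes the accessory chain that IL-1R1, the IL-33 receptor and the IL-36 receptor share. It had 9.43, 9.11 and 9.28 across the GFP livers and 9.33, 8.999 and 8.42 across the SHH livers. SHH 26 lay within the GFP range, SHH 28 just under it and SHH 31 well below. The difference of -0.36 (95% interval -0.85 to 0.14; limma, adjusted p = 0.791) became -0.11 without SHH 31 and -0.56 without SHH 26. The other two probe sets naming Il1rap alone differed by -0.11 and -0.35, the second at low signal (2.66 to 3.46). The mean differences of Il1r1 and Il1rap were of opposite sign, and that of Il1rap did not exceed the SD of its SHH livers (0.46).

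Among the inflammasome genes, Casp1, the protease that cuts the IL-1β precursor, had 4.52, 3.92 and 4.60 across the GFP livers. Across the SHH livers it had 4.65, 4.27 and 5.72. SHH 31 stood alone at the top and the other 5 livers overlapped. The difference was 0.53 (95% interval -0.25 to 1.31; limma, adjusted p = 0.795). Without SHH 31 it was 0.11, and without SHH 28 it was 0.84 (unadjusted p = 0.0359).

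Nlrp3, the sensor of the best-studied inflammasome, ranged from 3.89 to 4.12 in GFP livers and from 3.92 to 4.29 in SHH livers. The highest values were SHH 31 (4.29) and GFP 6 (4.12). It was below the median of every array and differed by 0.09 (95% interval -0.24 to 0.42; limma, adjusted p = 0.930).

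**Figure D2:**
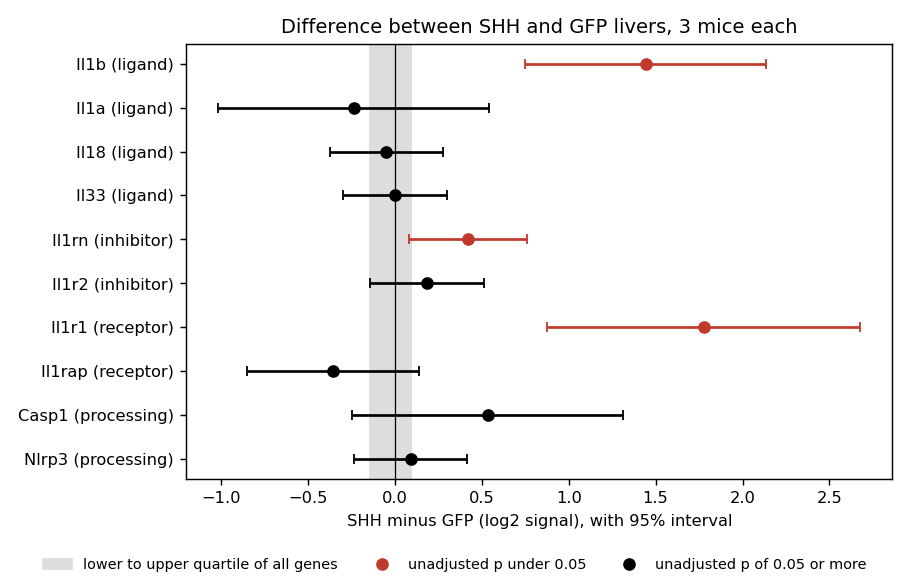
Differences between SHH and GFP livers (log2 signal, 3 mice each) are drawn for the 10 genes with 95% intervals from limma, red where the unadjusted p was under 0.05, over a grey band from the lower to the upper quartile of all genes (-0.14 to 0.09). The intervals of Il1b, Il1rn and Il1r1 lie above 0, and those of the other 7 genes include it.

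**Figure D3:**
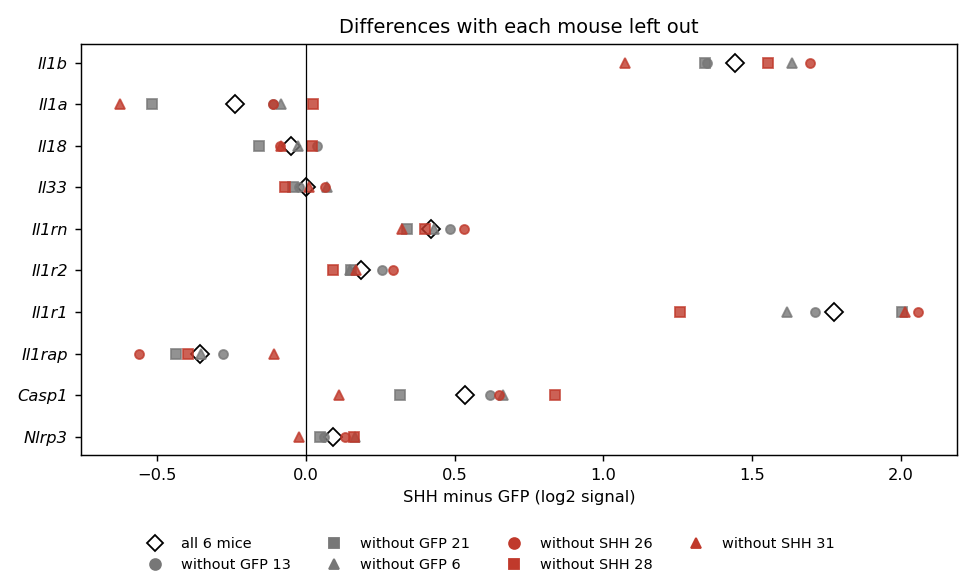
The same differences (log2 signal) are shown with all 6 mice (open diamonds) and with each mouse left out in turn (grey for GFP, red for SHH). Il1b stayed between 1.07 and 1.70 and Il1r1 between 1.26 and 2.06, whereas Il1a, Il18, Il33 and Nlrp3 changed sign.

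Wider genes of the pathway were read from 5 lists. Other IL-1 family ligands and binding proteins were represented by 2 measured genes of 6. Il18bp, the soluble protein that neutralises IL-18, was 6.35, 6.25 and 6.64 across the GFP livers and 6.52, 6.84 and 7.38 across the SHH livers, overlapping only through GFP 6 and SHH 26. Its difference was 0.50 (limma, unadjusted p = 0.0484, adjusted p = 0.677), beside the -0.05 of Il18 itself. Il1f10 differed by -0.10. Of 6 measured genes for other receptors of the family 0 had an unadjusted p under 0.05 (Il1rl2 0.27, and Il18rap, a chain of the IL-18 receptor, 0.35). These named genes lay below the median of every array. Another 2 of the 6 lay below the lower quartile on every array, so the count says little.

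Of 18 other genes of inflammasomes and pyroptosis, the lytic death that follows their activation, 2 had an unadjusted p under 0.05 upward and 0 downward, against 3.33% and 4.01% of all genes. Casp4, the mouse gene for the caspase that senses bacterial lipopolysaccharide inside cells, was 0.64 higher (1.55-fold; limma, adjusted p = 0.611), with SHH 28 (4.19) just under GFP 13 (4.20). Panx1, a channel that releases ATP, was 0.28 higher with no overlap (limma, adjusted p = 0.677). The median difference of the list was 0.19, against -0.03 for all genes.

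Of 15 measured signal transducers between the receptor and NF-kappaB, 0 had an unadjusted p under 0.05 upward and 2 downward, against 3.33% and 4.01% of all genes. Irak1, a kinase recruited by MyD88, was 7.005, 7.31 and 7.02 across the GFP livers and 6.76, 6.86 and 6.28 across the SHH livers. Ikbkg, the regulatory subunit of the kinase complex that frees NF-kappaB, was 7.27 to 7.56 in GFP livers and 6.97 to 7.09 in SHH livers. In both genes every SHH liver lay below every GFP liver, with differences of -0.48 and -0.36 (limma, adjusted p = 0.625 and 0.612). Such separation downward was found for 7.25% of all genes. Map3k8 and Tab1, named after their values were seen, were separated upward (differences 0.28 and 0.26), as were 5.26% of all genes. Their unadjusted p was 0.076 and 0.0954 (limma). Over the 15 transducers the median difference was 0.03, and the SHH mean was the higher one for 8 and the lower one for 7.

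Genes that IL-1 and NF-kappaB are known to induce, many of them also induced by IL-6, had more members past the unadjusted threshold than any other of the 5 lists. In SHH livers 18 of the 23 measured genes had higher means, 12 had an unadjusted p under 0.05 upward and 0 downward, against 43.8%, 3.33% and 4.01% of all genes, and 0 passed over all genes in limma. The list was written with earlier results of these data known, so its direction is not independent evidence. Saa3, a serum amyloid made by macrophages and hepatocytes, was 5.54, 6.00 and 5.49 across the GFP livers and 6.42, 7.85 and 8.19 across the SHH livers (3.50-fold). Lcn2, which encodes an iron-withholding protein, was 12.0-fold higher, with 5.19 to 6.13 in GFP livers and 6.47, 11.31 and 10.06 across the SHH livers. Orm2, an acute phase carrier protein with close relatives that can share signal, was 7.47, 7.86 and 7.45 across the GFP livers and 8.11, 12.49 and 11.86 across the SHH livers (9.39-fold). The monocyte chemokine gene Ccl2 was 1.38-fold higher. In each of these 4 genes the SHH and GFP livers did not overlap (limma, adjusted p = 0.409 for Saa3, 0.512 for Lcn2, 0.521 for Orm2 and 0.521 for Ccl2). Over the list, 7 of 23 genes were separated upward and 1 downward, against 5.26% and 7.25% of all genes. Without SHH 26 the first 3 passed over all genes in limma: Orm2 was then 24.0-fold (adjusted p = 4.71e-04), Lcn2 31.9-fold (adjusted p = 0.00397) and Saa3 5.06-fold higher (adjusted p = 0.00600). With any other mouse left out, Orm2, Lcn2 and Saa3 did not pass (limma, lowest adjusted p = 0.483, for Saa3 without GFP 21). Without SHH 28 Orm2 was 5.27-fold and Lcn2 5.95-fold higher.

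The list was uneven. Sod2, named after its values were seen, was lower in every SHH liver than in any GFP liver (difference -0.19, limma, adjusted p = 0.791). Chosen after their values were seen, Tnf (0.14), Il6 (0.10), Ptgs2 (-0.04), Cxcl2 (0.03) and the NF-kappaB feedback inhibitor gene Nfkbia (-0.17) each differed by less than 0.2, while Saa2 and Cxcl1 differed by 3.46 and 1.91. Il6 was dimmer than the lower quartile on each array, and Ptgs2 on every array except that of GFP 6. Tnf and Cxcl2 lay below the median of every array. The small differences of Il6, Ptgs2, Tnf and Cxcl2 therefore say little. SHH 26 was the SHH liver nearest to the GFP livers: Saa2 was 7.60 there and 7.996 in GFP 21.

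**Figure D4:**
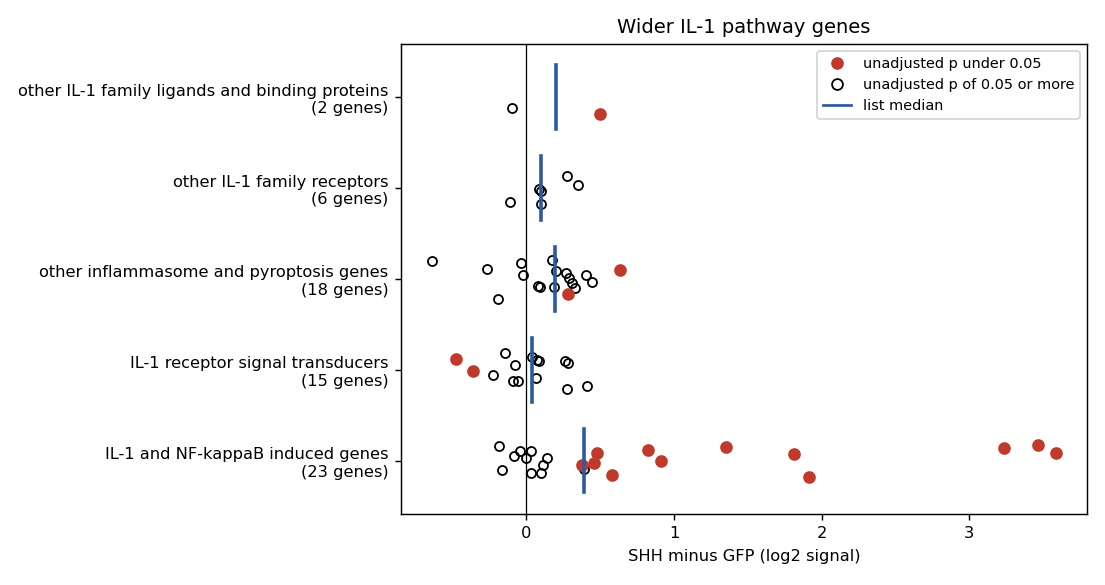
Each point is the difference between SHH and GFP livers (log2 signal) of 1 gene in the 5 wider lists, filled red where the unadjusted p was under 0.05, with the list median as a blue line. The IL-1 and NF-kappaB induced genes reach 3.59 (Lcn2), while the signal transducers lie between -0.48 and 0.41.

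Markers of the myeloid cells that make IL-1β were read beside Il1b. Of all genes, 43.8% had a higher mean in SHH than in GFP livers and 3.33% an unadjusted p under 0.05 upward, and no marker named here passed over all genes. All 13 measured neutrophil markers had higher means and 6 an unadjusted p under 0.05 upward. Their mean level was 3.60 to 3.79 in GFP livers and 3.85 to 4.72 in SHH livers (Cxcr2 1.82-fold, Retnlg 2.92-fold higher). Of 12 markers of monocytes and cells derived from them, 11 had higher means and 6 an unadjusted p under 0.05 upward. Their mean level was 4.81 to 4.90 in GFP livers and 5.15 to 5.99 in SHH livers (Itgam 1.79-fold, Plac8 1.94-fold). All 12 Kupffer cell markers had higher means and 8 an unadjusted p under 0.05 upward, with a mean level of 6.37 to 7.21 in GFP livers and 6.96 to 7.92 in SHH livers (Cd163 1.95-fold, Vsig4 1.70-fold). None of the markers in these 3 lists was dimmer than the lower quartile on all 6 arrays. However, S100a8, Camp and Vcan were dimmer than it in every GFP liver (S100a8 at 2.84, 2.62 and 2.99), so their baseline is uncertain. Their part in the Il1b difference was not tested.

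Mouse by mouse, Il1b followed the order of the monocyte and Kupffer cell lists within the SHH group: SHH 26 lowest, SHH 28 next and SHH 31 highest. The B and plasma cell list had the same order (4.80, 5.29 and 5.37). This order was thus not particular to the monocyte and Kupffer cell lists, and it was not tested. The neutrophil list departed from it by a narrow margin, with 4.72 in SHH 28 and 4.65 in SHH 31. GFP 6, the GFP liver with the highest Il1b, also had the highest Kupffer cell level of its group (7.21), above SHH 26 (6.96) and SHH 28 (7.10), although its Il1b (5.13) lay below both. Il1r1 had another order, highest in SHH 28, and within the GFP group highest in GFP 21. The induced genes were highest in the same livers, with mean levels of 6.21, 7.24 and 7.15 across the SHH livers. Their level was 6.15 in GFP 21, against 5.91 and 6.02 in GFP 13 and 6. The other SHH livers differed: Il1r1 was 1.22 above the GFP mean in SHH 26 and 1.30 in SHH 31. The induced list was 0.18 above it in SHH 26 and 1.12 in SHH 31.

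**Figure D5:**
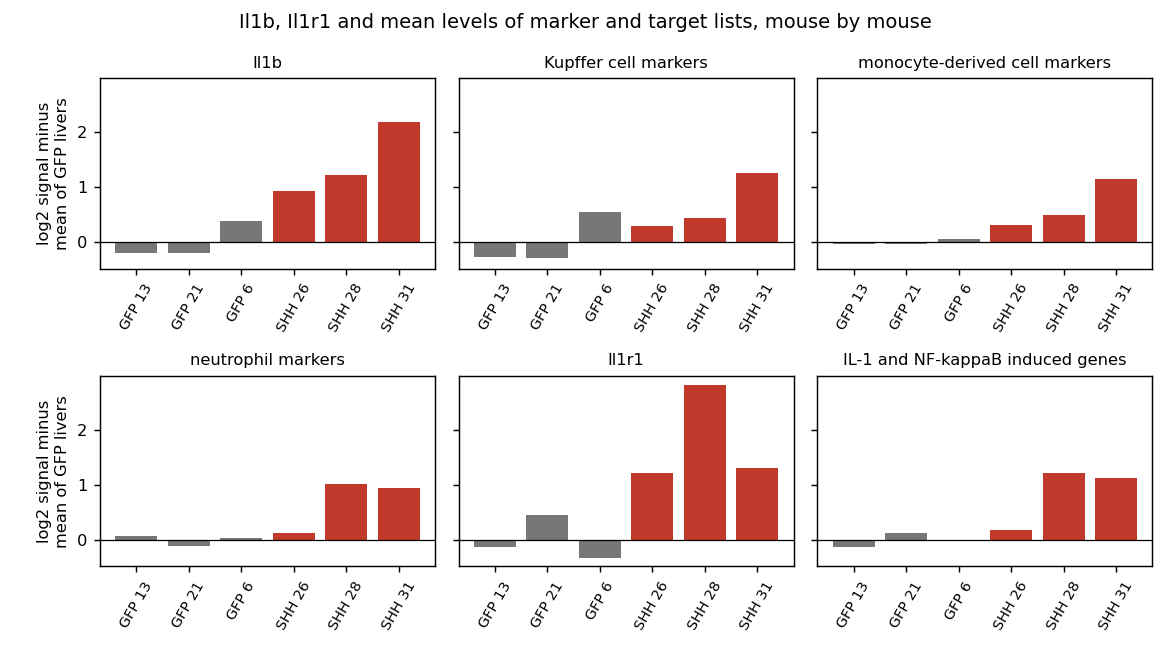
Bars show, for each liver, the log2 signal minus the mean of the GFP livers for Il1b and Il1r1 and for the mean levels of 4 gene lists (grey GFP, red SHH). Il1b is highest in SHH 31 (2.18 above the GFP mean), as are the Kupffer cell (1.26) and monocyte (1.15) lists, and Il1r1 is highest in SHH 28 (2.81), as is the induced list (1.21).

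Other cell types were read for the receptors and for IL-18, and their counts stand against the same 3.33% of all genes. Of 9 measured T and natural killer cell markers, 3 had an unadjusted p under 0.05 upward (Cd3g 2.03-fold and Cd8a 1.46-fold had the smallest p), with mean levels of 3.86 to 3.998 in GFP livers and 4.09 to 4.67 in SHH livers. Of 6 B and plasma cell markers 2 did so (Jchain 2.74-fold, Ighm 2.61-fold), with 4.53 to 4.69 and 4.80 to 5.37. Of 5 bile duct markers 0 did so, with Krt7 at -0.07 and Cftr, dimmer than the lower quartile on every array, at 0.13. Among the 12 hepatocyte markers 2 did so, Hpx (0.64) and Fgb (0.31), which are acute phase genes too, and the median of that list was 0.02.

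The 3 genes whose centred profile over the 6 arrays lay nearest to that of Il1b, by the root mean square difference, were Pla2g7 (0.17), Cyp2b9 (0.18) and Ctss (0.20). Pla2g7 encodes a secreted phospholipase of macrophages that breaks down platelet-activating factor. It was 3.38, 3.26 and 3.68 across the GFP livers and 4.14, 4.48 and 5.22 across the SHH livers. Ctss, a lysosomal protease of antigen-presenting cells, was 7.44 to 8.33 in GFP livers and 8.52 to 9.90 in SHH livers, and the cytochrome P450 gene Cyp2b9 was 6.47 to 7.56 and 7.70 to 8.84. In all 3, as in Il1b, GFP 6 was the highest GFP liver and SHH 31 the highest SHH liver, and the groups did not overlap. The profiles were ranked over 22180 genes and not tested, so this likeness to Il1b comes from the choice of genes.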

How the data were processed

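The values deposited by the authors are log2 signals, 1 column per array, made with RMA per the submitters' processing notes. RMA corrects the background, equalises the distributions of the arrays and summarises each probe set, and its version is not given in the sources used here. Of 41345 probe sets, 23521 named 1 gene in the platform annotation, 1814 several, and 16010 are unnamed here. Only the first kind was used, 1 per gene, the one with the highest mean over 6 arrays. Symbols were compared with RefSeq (GRCm38.p6) through gene identifiers, which changed 0.

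The 2 groups were fitted with limma (version 3.58.1, R 4.3.3; lmFit and eBayes, two-sided, no filter, no covariate), with Benjamini-Hochberg adjustment over 22180 genes and a threshold of 0.05. Intervals are 95% intervals of the same fit. Differences within arrays were compared by exact permutation. The fit was also run on simulated data in which both groups shared 1 variance per gene. That run does not cover genes with unequal spread, such as Lcn2 (SD 0.47 in GFP and 2.51 in SHH livers). The labels call the samples separate mice and give no batch.

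The members and lists were chosen with earlier results of these data known. All 10 members were named. Of each wider list, up to 4 genes with an unadjusted p under 0.05 were named, by smallest p, or the 2 with the smallest p where none passed, and of each marker list the 2 with the smallest p. Added to these were the 3 profiles nearest to Il1b, predicted genes left out. Listed genes with no probe set of their own were not analysed here. The settings tried were averaging a gene's probe sets, taking its most variable probe set by interquartile range, keeping genes above the median level, quantile normalization of the deposited values, aligning array medians, a trended prior, array weights, and leaving out each mouse.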

Additional observations from a re-analysis of the deposited data

How the results depend on the processing

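No paired analysis was possible because the mouse numbers of the GFP and SHH groups are not shared. Under the 7 alternatives that keep all mice, the counts of members and pathway genes stayed within 1.5 times their main values, and 0 genes passed over all genes. Il1b ran from 1.23 to 1.47 and Il1r1 from 1.78 to 1.81. Il1rn, Il1r2, Il33, Casp1 and Nlrp3 gave no value where only genes above the median level were kept. With each mouse left out in turn, 0 to 30 genes passed upward and 0 to 16 downward over all genes, the highest counts without SHH 26, and 0 of the 10 members did so in any of these fits (lowest adjusted p 0.125 for Il1b and 0.181 for Il1r1, both without SHH 26). Members with an unadjusted p under 0.05 numbered 2 to 3 upward and 0 to 1 downward (Il1rap, without SHH 26). Members without overlap numbered 3 to 4 upward and 0 to 1 downward (without GFP 21 and without SHH 26). Of 64 measured wider pathway genes, 15 had an unadjusted p under 0.05 upward and 2 downward with all mice, against 3.33% and 4.01% of all genes. With a mouse left out they numbered 9 (without GFP 6) to 17 upward and 1 to 2 downward. Shares of all genes are not given for the fits with a mouse left out. Smaller groups also separate more easily, so these ranges of counts are descriptive only. Il1b less Il1rn ran from 0.75 to 1.20, Il1r1 less Il1r2 from 1.17 to 1.85 and Il1b less Il1a from 1.46 to 1.86. Members below the median of every array (Il1r2, Il33, Nlrp3) are the ones whose signal most limits what a small difference shows. Casp1 was above the median on 4 arrays, and Il1a and Il1rn on 5, so the limit touches them too. Il1b was above it on every array but near it in GFP 13 and GFP 21 (4.56 and 4.55, medians 4.39 and 4.36). The size of its difference is therefore uncertain as well.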

Other observations

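Chosen after the values of Il1r1 were seen, the 3 named genes with the nearest profile to Il1r1 over the 6 arrays were Slc3a1, Slc13a5 and Egr1, with root mean square differences of 0.32, 0.34 and 0.34 on the log2 scale. Slc3a1, a subunit of a transporter of cystine and basic amino acids, was 8.68, 9.52 and 8.49 across the GFP livers and 9.49, 10.97 and 10.004 across the SHH livers. Slc13a5, the citrate transporter gene, was 4.15, 4.36 and 4.10 in the GFP livers and 4.58, 6.92 and 5.48 in the SHH livers. Egr1, an immediate early transcription factor gene, was 5.29, 5.18 and 5.53 and then 6.75, 8.33 and 6.57. In all 3 genes SHH 28 was the highest liver, as it was for Il1r1, a likeness that comes from the choice of genes. Slc13a5 and Egr1 had no overlap between the groups, while Slc3a1 in SHH 26 lay just below GFP 21. None passed over all genes in limma (adjusted p = 0.530 for Slc3a1, 0.572 for Slc13a5 and 0.409 for Egr1).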
